A study of Mus musculus with 24 samples.

Results

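The genes described here encode the trans-synaptic adhesion pairs built on neurexins: the neurexin genes Nrxn2 and Nrxn3, the neuroligin genes Nlgn1, Nlgn2 and Nlgn3, and the leucine-rich repeat transmembrane genes Lrrtm1, Lrrtm2, Lrrtm3 and Lrrtm4. They were taken by name from the families, with no threshold on their values but with earlier results of these data known. They are 9 of the 15232 genes in the deposited expression table. All 9 were in the table and passed the filter for testing, a mean of at least 1 FPKM (fragments per gene length and library size) over the 24 libraries, as 12572 genes did.

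Neurexins sit in the presynaptic membrane and bind, across the cleft, to neuroligins and to LRRTM proteins in the postsynaptic membrane. Neuroligin 1 is known mainly from excitatory synapses, neuroligin 2 from inhibitory synapses, and neuroligin 3 from both kinds and also from glia. The LRRTM proteins are organizers of excitatory synapses. Thrombospondins are proteins that astrocytes secrete and that promote the formation of excitatory synapses, and thrombospondin 1 has been reported to act through neuroligin 1.

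Poly(A) RNA was sequenced in bulk from whole anterior cingulate cortex (ACC), 1 library for each of 24 mice, in 3 arms of 8 animals with 4 females and 4 males each. The first arm is labelled wild type (WT) and untrained. The second is labelled Thbs1/2 KO, a knockout of the genes Thbs1 and Thbs2 for thrombospondins 1 and 2, and untrained. The third is labelled Thbs1/2 KO and was trained in an operant (Skinner box) task, with food deprivation from the time of training, so the task and the food deprivation cannot be told apart. The design text puts RNA collection at up to 1 hour after the behaviour ended. Trained WT animals were not analysed here, and the labels used here give no age, strain or design of the knockout alleles. The comparisons ask whether the adhesion genes differ with the genotype label, with training within the animals labelled KO, and with sex.

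Both targeted genes were higher in the libraries labelled KO. Thbs1 was at 0.254 to 0.716 FPKM in the libraries labelled WT, at 2.77 to 5.04 in the untrained and at 3.62 to 5.91 in the trained libraries labelled KO. Thbs2 was at 1.52 to 2.31 in the first arm, 2.82 to 3.95 in the second and 2.95 to 3.63 in the third, so neither gene overlapped between labels. Arms are therefore called by their labels throughout, and every direction between genotypes rests on those labels. Whole reads recovered from the FPKM values came to 12343773 to 27233267 per library. Male 3 of the untrained arm labelled KO stood apart: its mean log2(FPKM + 1) over 7 septal marker genes was 4.30 against 1.64 to 1.97 in the other 23 libraries, and over 8 excitatory neuron markers 4.83 against 6.12 to 6.39. The animal numbers in the sample descriptions also split the animals. All 8 trained animals have numbers over 1000, against 2 untrained males labelled KO and 1 male labelled WT, and the labels do not say what the numbers mark.

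The neuroligin transcripts differ in base composition, which is set beside the comparison of the sexes below. GC content of the longest annotated transcript (GENCODE M21, GRCm38) was 38.9% for Nlgn1, at percentile 3.3 of the tested genes, 60.7% for Nlgn2, at percentile 96.8, and 49.3% for Nlgn3. Codon position 3 over the whole coding sequence held G or C in 43.4%, 73.7% and 63.1% of codons. The last 120 coding bases before the stop codon show the contrast of Nlgn1 with the other 2 genes, which are equal in this stretch. They are printed 5′ to 3′ on the coding strand with G or C at codon position 3 in capitals. In this stretch 16 of 40 codons of Nlgn1 end in G or C, against 26 of 40 in Nlgn2 and 26 of 40 in Nlgn3.
Nlgn1, chr3:25433641-25433760, minus strand: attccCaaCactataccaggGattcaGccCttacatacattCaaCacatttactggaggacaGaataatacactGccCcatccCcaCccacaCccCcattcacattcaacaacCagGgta
Nlgn2, chr11:69825206-69825325, minus strand: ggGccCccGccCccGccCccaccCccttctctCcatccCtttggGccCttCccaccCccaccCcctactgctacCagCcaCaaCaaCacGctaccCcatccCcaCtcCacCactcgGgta
Nlgn3, chrX:101320140-101320259, plus strand: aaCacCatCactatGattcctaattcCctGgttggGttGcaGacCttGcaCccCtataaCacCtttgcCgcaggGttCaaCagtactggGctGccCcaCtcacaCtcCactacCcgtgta
These ends encode the cytoplasmic tail, whose last residues are known to bind PDZ domains of postsynaptic scaffolds. Aligned from the last base without gaps, each pair shared 9 of the last 12 bases, and over the 120 bases Nlgn1 shared 53 with Nlgn2 and 45 with Nlgn3.

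Nlgn2 had the highest level of the 9 genes and Lrrtm4 the lowest. Median FPKM over the 24 libraries, which is scaled for gene length, was 49.7 for Nlgn2, 38.4 for Nrxn2, 33.9 for Nrxn3, 23.3 for Nlgn3, 19.7 for Lrrtm2, 16.6 for Lrrtm1, 15.5 for Nlgn1, 14.1 for Lrrtm3 and 7.62 for Lrrtm4. The order held within all 24 libraries at 3 steps: Nlgn2 above Nrxn2, Nrxn3 above Nlgn3, and Lrrtm3 above Lrrtm4. Nrxn2 exceeded Nrxn3 in 20 of 24 libraries. Nlgn3 exceeded Lrrtm2 in 18 and Lrrtm2 exceeded Lrrtm1 in 18. Lrrtm1 exceeded Nlgn1 in 15 and Nlgn1 exceeded Lrrtm3 in 15, so these 3 genes were not separated beyond their spread. Only the ranges of Lrrtm3 and Lrrtm4, 11.9 to 18.4 and 6.28 to 10.7 FPKM, did not overlap among neighbours. The coefficient of variation over all libraries lay between 8.85% for Nlgn2 and 16.3% for Lrrtm2. Each value rests on at least 412 recovered reads, the lowest count of Lrrtm4.

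**Figure D1:**
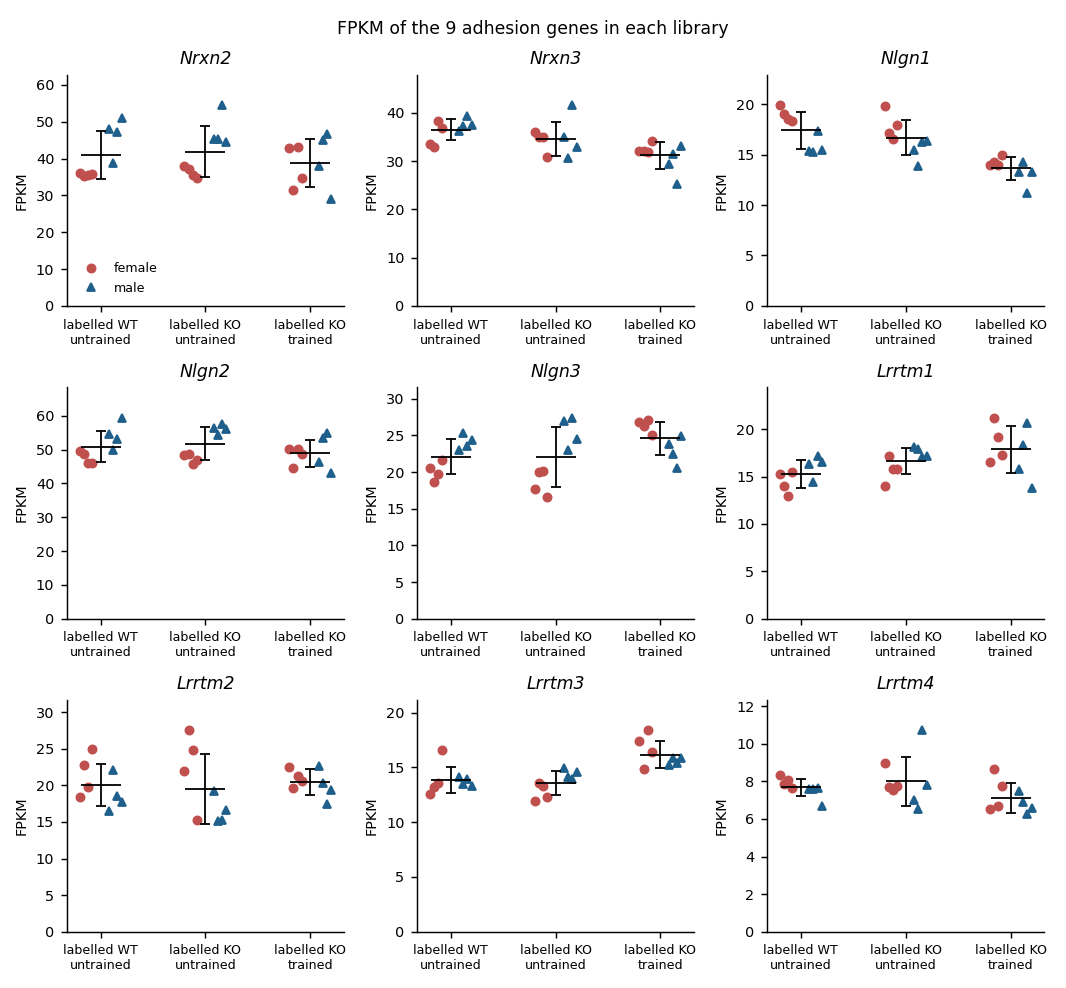
FPKM (vertical axis, from 0) of the 9 adhesion genes in each of the 24 libraries, by arm (horizontal axis). Circles are females, triangles are males, and the black bar with whiskers is the mean ± SD of 8 libraries. Nlgn1 sits at 11.2 to 14.9 in the trained arm, below all 8 libraries labelled WT, and Lrrtm3 at 14.8 to 18.4.

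None of the 9 genes differed with the genotype label among untrained animals after adjustment. Of all tested genes 1.42% passed the same test, limma with Benjamini-Hochberg adjustment on log2(FPKM + 1). This scale is used for all differences below and understates those of low genes. Bulk RNA cannot tell apart fewer cells of a type from less RNA per cell. At an unadjusted p under 0.05 there was 1 of 9 genes, Lrrtm1, and 1600 of all 12572 genes, and limma-voom on the recovered reads also called 0 of 9, as did the fit of animals with numbers up to 1000 only. The arms overlapped for all 9 genes, and 0.501% of tested genes had arms that did not overlap.

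The presynaptic genes lay close between the labels. Nrxn2 was at 35.3, 37.5 and 50.9 FPKM (lowest, median, highest of 8) in libraries labelled WT and at 34.6, 41.2 and 54.6 in untrained libraries labelled KO. Nrxn3 was at 32.9, 37.1 and 39.3 against 30.7, 34.9 and 41.7. The arms overlapped for both genes, and the highest value of each in the second arm came from the library that stood apart. The log2 differences, KO label minus WT label, were 0.03 with a 95% interval of -0.08 to 0.14 for Nrxn2 and -0.08 with an interval of -0.20 to 0.04 for Nrxn3.

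Neuroligin levels likewise overlapped between the labels. Nlgn1 was at 15.3, 17.9 and 19.9 FPKM in libraries labelled WT and at 13.9, 16.5 and 19.9 in untrained libraries labelled KO, a log2 difference of -0.06 with a 95% interval of -0.15 to 0.04. Nlgn2 went from 46.1, 49.7 and 59.5 to 45.9, 51.7 and 57.5, with an interval of -0.05 to 0.10. Nlgn3 went from 18.6, 22.4 and 25.3 to 16.6, 21.5 and 27.4, with an interval of -0.13 to 0.10.

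Among the LRRTM genes, Lrrtm1 was at 12.9, 15.3 and 17.2 FPKM in libraries labelled WT and at 14.02, 17.1 and 18.2 in untrained libraries labelled KO. The arms overlapped, 7 of 8 libraries labelled KO lay above the WT mean, and the log2 difference was 0.12 (SE 0.0480, limma adjusted p = 0.2996). It was 0.12 in females and 0.12 in males. For Lrrtm2, Lrrtm3 and Lrrtm4 the log2 differences were -0.06, -0.03 and 0.04, with 95% intervals of -0.28 to 0.16, -0.14 to 0.08 and -0.11 to 0.20. Lrrtm4 in the library that stood apart was 10.7 FPKM against 6.55 to 8.97 in the other libraries of its arm, and without that library its difference was -0.02.

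Of the genes that pair with or stand beside these adhesion systems, 74 were listed and 72 tested. They are neurexin ligands such as cerebellins and neurexophilins, neuroligin inhibitors, intracellular scaffolds, splicing factors and sheddases of neurexins, and other synaptic organizers. With the genotype label 1 of 72 passed, 1.39% against the 1.42% of all tested genes. It was Lrrc4c, which encodes the netrin-G ligand NGL-1, a postsynaptic adhesion protein. Lrrc4c fell from 39.5 ± 3.02 FPKM (SD, n = 8) in libraries labelled WT to 30.8 ± 3.17 (SD, n = 8) in untrained libraries labelled KO, a log2 difference of -0.35 (SE 0.0572, limma adjusted p = 0.00261). The median log2 difference was -0.04 over the 72 genes and 0.00 over all tested genes.

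Between trained and untrained animals labelled KO, 2 of the 9 genes differed, Nlgn1 lower and Lrrtm3 higher in the trained arm. Of all tested genes 5.67% passed, 3.5% higher and 2.17% lower. The other 7 did not pass. The arms of 8 overlapped for all 9 genes, and 0.962% of tested genes had arms that did not overlap. The share of tested genes whose arms of 4 do not overlap within a sex was not counted. Such splits are given below as descriptions only. The median size of the log2 difference, signs set aside, was 0.14 over the 9 genes and 0.08 over all tested genes.

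Nlgn1 was lower in the trained arm. In females the 4 untrained libraries labelled KO were at 19.9, 17.1, 16.6 and 17.98 FPKM and the 4 trained ones at 13.9, 14.3, 13.998 and 14.9. In males the values were 15.5, 13.9, 16.2 and 16.3 untrained and 13.2, 14.3, 11.2 and 13.3 trained. The females did not overlap between arms, a split of 4 against 4 given as a description. Among males 1 trained library lay above the lowest untrained one. The arms of 8 had means of 16.7 ± 1.75 and 13.6 ± 1.147 FPKM (SD, n = 8). The log2 difference, trained minus untrained, was -0.27 (SE 0.0525, limma adjusted p = 0.00850), -0.30 in females and -0.24 in males, with no detectable difference between the sexes (0.06, 95% interval -0.16 to 0.29). It stayed between -0.30 and -0.24 when each of the 16 libraries was left out in turn, with adjusted p from 0.00505 to 0.0234, and was -0.26 without the library that stood apart.

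The split by animal number runs beside this difference. Untrained males labelled KO with numbers over 1000 were at 13.9 and 15.5 FPKM of Nlgn1 and those with lower numbers at 16.2 and 16.3, while trained males, all over 1000, were at 11.2 to 14.3. With the split as a covariate the difference was -0.17 (limma adjusted p = 0.509), and in males over 1000 alone, 4 trained and 2 untrained, it was -0.17 (limma adjusted p = 0.591). No female allows this comparison, so in females training and animal number cannot be told apart. With each library corrected for GC content and transcript length, the Nlgn1 difference was -0.16 (limma adjusted p = 0.10). The 430 tested genes within 1 percentage point of its GC content had a median training difference of -0.03.

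Lrrtm3, which encodes a postsynaptic neurexin ligand, was higher in the trained arm. In females the untrained libraries labelled KO were at 11.9, 13.5, 13.3 and 12.3 FPKM and the trained ones at 17.4, 14.8, 18.4 and 16.4. In males the values were 14.96, 14.1, 13.9 and 14.6 untrained and 15.2, 15.8, 15.4 and 15.9 trained. Within each sex the arms did not overlap, and 7 of 8 trained libraries lay above every untrained library labelled KO. These splits are descriptions, as their share over all tested genes was not counted. The arms of 8 had means of 13.6 ± 1.05 and 16.2 ± 1.198 FPKM (SD, n = 8), and the log2 difference was 0.24 (SE 0.0537, limma adjusted p = 0.0189).

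The difference of Lrrtm3 was 0.36 in females and 0.11 in males, and the test of that contrast gave -0.26 (SE 0.0878, limma adjusted p = 0.182). It passed in all 16 fits that left out 1 library, with adjusted p from 0.0176 to 0.0461. After the correction for GC content and length it was 0.25 (limma adjusted p = 0.0255). Untrained males labelled KO with numbers over 1000 were at 14.1 and 14.96 FPKM of Lrrtm3, and those with lower numbers at 13.9 and 14.6. With animal number as a covariate the log2 difference was 0.14 (limma adjusted p = 0.60), and in males over 1000 alone 0.10 (limma adjusted p = 0.655). Lrrtm3 lies inside Ctnna3 on the opposite strand with no shared exon, and Ctnna3 was at 0.669 ± 0.156 FPKM (SD, n = 8) untrained and 0.681 ± 0.169 (SD, n = 8) trained. The strand setting of the counting is not given in the sources used here.

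**Figure D2:**
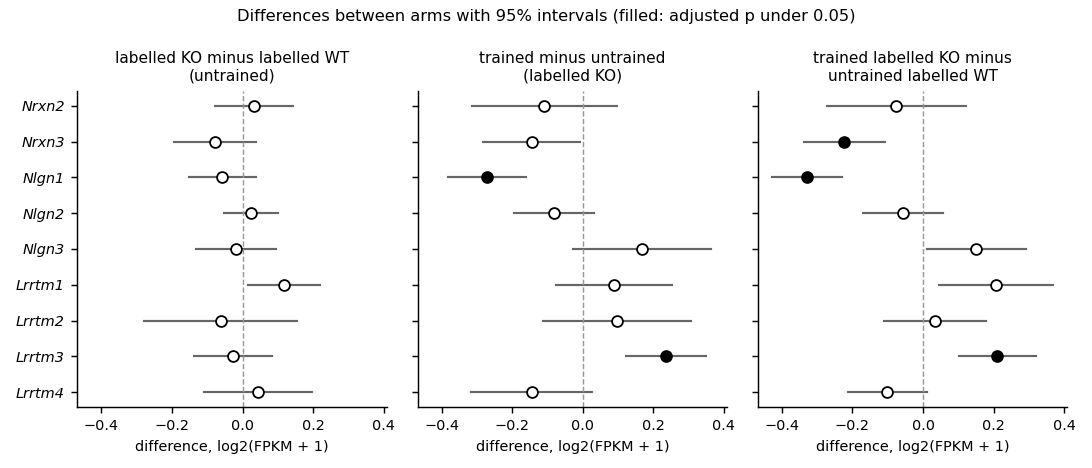
Differences in log2(FPKM + 1) (horizontal axis) of the 9 adhesion genes between arms, with 95% intervals from limma and filled points for an adjusted p under 0.05. No point is filled for the genotype label, Nlgn1 and Lrrtm3 are filled for training, and Nrxn3, Nlgn1 and Lrrtm3 for trained animals labelled KO against untrained animals labelled WT.

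**Figure D3:**
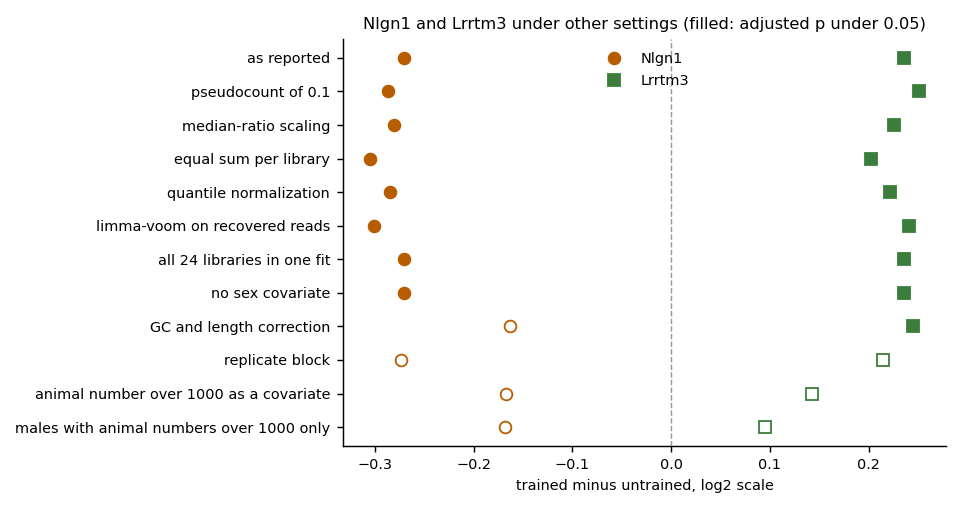
Training difference (horizontal axis, log2 scale) of Nlgn1 (circles) and Lrrtm3 (squares) under each alternative named on the vertical axis, filled where the adjusted p is under 0.05. All values of Nlgn1 are negative and all of Lrrtm3 positive, and both points are open with the replicate block (a term for the replicate number in the sample title, not the animal number), with animal number as a covariate and in males over 1000 only.

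The promoters of these 2 genes are shown because they are the members that passed the training test. The windows run from 250 bases before to 50 after an annotated start (RefSeq, GRCm38.p6) and are printed 5′ to 3′ on the gene's strand with CG dinucleotides in capitals.
Nlgn1, chr3:26331860-26332159, minus strand: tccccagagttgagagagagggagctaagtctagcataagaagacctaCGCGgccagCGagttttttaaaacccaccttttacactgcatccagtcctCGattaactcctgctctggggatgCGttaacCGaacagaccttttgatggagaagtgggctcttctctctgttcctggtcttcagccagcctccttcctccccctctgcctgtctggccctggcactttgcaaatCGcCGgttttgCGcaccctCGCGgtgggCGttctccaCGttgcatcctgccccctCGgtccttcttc
Lrrtm3, chr10:64090206-64090505, minus strand: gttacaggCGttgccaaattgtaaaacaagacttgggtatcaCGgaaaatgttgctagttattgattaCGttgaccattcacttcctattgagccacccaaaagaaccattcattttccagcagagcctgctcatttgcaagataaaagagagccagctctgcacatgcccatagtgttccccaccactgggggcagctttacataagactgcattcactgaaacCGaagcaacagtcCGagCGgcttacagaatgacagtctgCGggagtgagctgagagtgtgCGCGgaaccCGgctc
Nlgn1 has 2 annotated starts in the table, of which the upstream one is printed. Its window holds 14 CG dinucleotides, the window of the other start 6, and the Lrrtm3 window 10, against a median of 7 over 32851 windows. Of the 9 genes 6 matched the table, with 10 windows. The cAMP response element TGACGTCA, its shorter form TGACG, which the longer one contains, and the AP-1 site TGANTCA, all known from activity-regulated genes, were searched on both strands. They were found in 1.79%, 20.8% and 7.81% of all windows. Neither printed window held any of these letters. Among the other 8 windows, 1 of 3 Nrxn3 windows held TGANTCA and the Nlgn2 window held TGACG.

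The neurexins did not pass for training. Nrxn2 was at 34.6, 41.2 and 54.6 FPKM (lowest, median, highest of 8) untrained and 28.9, 40.4 and 46.6 trained, with a log2 difference of -0.11 (95% interval -0.32 to 0.10). Nrxn3 was at 30.7, 34.9 and 41.7 untrained and 25.3, 32.0 and 34.3 trained, a log2 difference of -0.14 (SE 0.0653, limma adjusted p = 0.189). The arms overlapped for both, with 2 trained libraries below every untrained one in each case. Without the library that stood apart the Nrxn3 difference was -0.10.

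The training difference of Nlgn3 had opposite signs in females and males. In females the untrained libraries labelled KO were at 17.6, 19.97, 20.1 and 16.6 FPKM and the trained ones at 26.8, 26.3, 27.0 and 25.1. In males the values were 27.0, 22.9, 27.4 and 24.5 untrained and 23.8, 22.4, 20.5 and 24.9 trained. The highest untrained female, 20.1, lay below the lowest trained female, 25.1, and the male arms overlapped. This split is a description, as its share over all tested genes was not counted. The log2 difference was 0.48 in females and -0.15 in males, and over both sexes it was 0.17 (SE 0.0924, limma adjusted p = 0.282). The contrast of the sexes, male minus female, was -0.63 (SE 0.107, limma adjusted p = 0.0512), just short of the threshold. For this contrast 0.00795% of tested genes passed, which is 1 gene, and 1952 had an unadjusted p under 0.05.

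The value of the Nlgn3 contrast ranged from -0.67 to -0.52 over 14 alternatives, and 6 of them passed. It passed with all 24 libraries in 1 fit (limma adjusted p = 0.00714) and after the GC and length correction (limma adjusted p = 0.0317), and did not pass with animal number as a covariate (limma adjusted p = 0.0915). Of the 16 fits that left out 1 library, 4 passed, among them the one without the library that stood apart (-0.59, limma adjusted p = 0.0321). How many of all tested genes passed in the alternatives and in these fits is not given here. The 4 females labelled WT were at 20.5, 18.6, 19.7 and 21.7 FPKM, near the untrained females labelled KO. All trained females carry numbers over 1000 and all untrained females lower ones, so for this gene too training and animal number cannot be told apart in females.

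Nlgn2, the neuroligin of inhibitory synapses, was at 45.9, 51.7 and 57.5 FPKM (lowest, median, highest of 8) untrained and 43.2, 49.4 and 54.9 trained. The arms overlapped, and the log2 difference was -0.08 with a 95% interval of -0.20 to 0.03. The ratio of Nlgn1 to Nlgn2 within a library, a description with no test, was 0.326 ± 0.0578 (SD, n = 8) untrained and 0.281 ± 0.0360 (SD, n = 8) trained in animals labelled KO, and 0.346 ± 0.0593 (SD, n = 8) in the arm labelled WT. Nlgn1 to Nlgn3 was at 0.972 ± 0.153 (SD, n = 4) in untrained females labelled KO and 0.544 ± 0.0365 (SD, n = 4) in trained females. In males the same ratio was 0.609 ± 0.0412 (SD, n = 4) and 0.567 ± 0.0473 (SD, n = 4). The lowest untrained female, 0.824, lay above the highest trained female, 0.596.

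**Figure D4:**
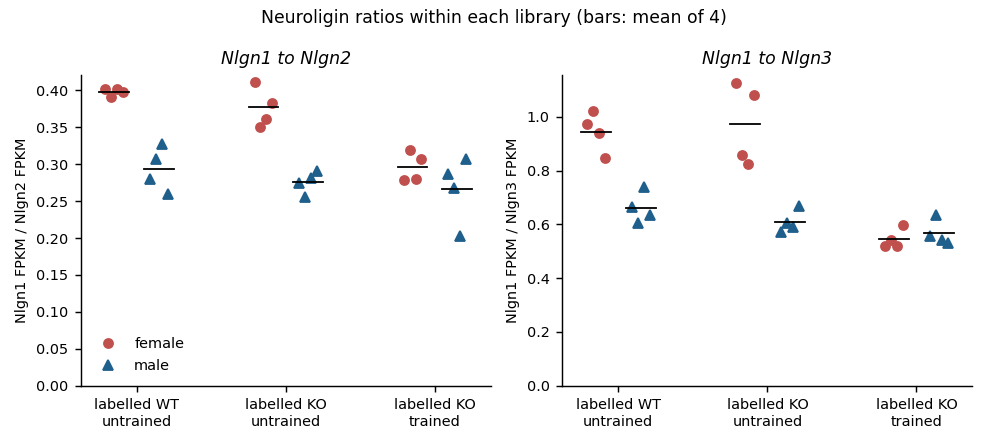
Ratio of Nlgn1 to Nlgn2 FPKM and of Nlgn1 to Nlgn3 FPKM (vertical axes, from 0) in each library, by arm (horizontal axis). Circles are females, triangles are males, and each bar is the mean of 4 libraries. The Nlgn1 to Nlgn3 ratio has a mean of 0.972 in untrained and 0.544 in trained females labelled KO, and of 0.609 and 0.567 in males.

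The other LRRTM genes did not pass for training. Lrrtm1 was at 14.02, 17.1 and 18.2 FPKM untrained and 13.8, 17.8 and 21.2 trained, with 4 trained libraries above every untrained one. Lrrtm2 was at 15.1, 17.9 and 27.5 untrained and 17.4, 20.5 and 22.7 trained. Lrrtm4 was at 6.55, 7.73 and 10.7 untrained and 6.28, 6.80 and 8.63 trained. The arms overlapped for all 3, and the log2 differences were 0.09, 0.10 and -0.14 with 95% intervals of -0.08 to 0.25, -0.11 to 0.31 and -0.32 to 0.03. Lrrtm4 without the library that stood apart differed by -0.08. The ratio of Lrrtm3 to Lrrtm4 was 1.74 ± 0.323 (SD, n = 8) untrained and 2.30 ± 0.343 (SD, n = 8) trained.

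Of the 72 tested partner and organizer genes, 3 passed for training, 4.17% against 5.67% of all tested genes, and all 3 fell. Tenm2, a teneurin that binds latrophilins across the synapse, fell from 18.7 ± 1.46 to 14.99 ± 1.67 FPKM (SD, n = 8; log2 difference -0.30, SE 0.0551, limma adjusted p = 0.00581). Ptprs, a presynaptic receptor phosphatase, fell from 69.1 ± 3.71 to 60.5 ± 4.70 FPKM (SD, n = 8; log2 difference -0.19, SE 0.0512, limma adjusted p = 0.0388). Grid1, a receptor for cerebellins bound to neurexins, fell from 22.9 ± 2.72 to 19.5 ± 1.13 FPKM (SD, n = 8; log2 difference -0.22, SE 0.0601, limma adjusted p = 0.0444). With animal number as a covariate, and in males over 1000 only, no tested gene passed for training in limma (1306 and 1320 at an unadjusted p under 0.05), so these 3 calls were lost there. None of the 14 neurexin ligands, the 6 intracellular neurexin partners or the 9 intracellular neuroligin partners passed.

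Cell type markers were read beside these differences. With training, of 8 excitatory neuron, 8 interneuron, 9 astrocyte, 6 oligodendrocyte precursor, 8 oligodendrocyte, 7 microglia and 6 endothelial markers only 1 passed, the endothelial gene Ly6c1, which rose. In that order the median log2 training differences of the lists were 0.16, 0.04, -0.05, -0.05, 0.23, -0.06 and 0.06. They were 0.22 for cortical, -0.12 for striatal and -0.29 for septal markers, against 0.007 over all tested genes. These medians include the library that stood apart. With the genotype label only the microglial gene Trem2 passed and was lower. Mean log2(FPKM + 1) of the excitatory markers was 6.22 to 6.35 in trained libraries and, leaving out the library that stood apart, within 6.12 to 6.39 in all others. The 8 striatal markers ranged from 2.64 to 5.79 in untrained and from 2.59 to 4.36 in trained libraries labelled KO. The value of 5.79 came from the library that stood apart. In libraries labelled WT the striatal markers ranged from 2.78 to 4.90, with the highest value in female 4. The part of cell composition in the differences of Nlgn1 and Lrrtm3 was not tested. The 8 cortical markers averaged 4.67 to 4.96 in 23 libraries and 3.58 in the one that stood apart.

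Trained animals labelled KO were also set against untrained animals labelled WT. These arms differ in both label and training and are the same libraries as above, so the values add no independent evidence. Of the 9 genes 3 passed, where 24.5% of all tested genes did. Nlgn1 was at 15.3, 17.9 and 19.9 FPKM (lowest, median, highest of 8) in the arm labelled WT and 11.2, 13.97 and 14.9 in the trained arm. All 8 trained libraries lay below all 8 labelled WT, as arms did not overlap for 3.11% of tested genes, and the log2 difference was -0.33 (SE 0.0476, limma adjusted p = 0.000150). Nrxn3 was at 32.9, 37.1 and 39.3 against 25.3, 32.0 and 34.3, with overlap, a log2 difference of -0.22 (SE 0.0549, limma adjusted p = 0.00755). Lrrtm3 was at 12.6, 13.5 and 16.6 against 14.8, 15.8 and 18.4, with overlap, a log2 difference of 0.21 (SE 0.0519, limma adjusted p = 0.00776).

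Cell type markers also differed between these arms: 3 of 8 excitatory neuron markers and 3 of 8 interneuron markers were higher, and of 7 microglia markers 4 were lower and 1 higher. Of 9 astrocyte markers 2 were higher and 1 lower, of 6 oligodendrocyte precursor markers 1 and 2, of 8 oligodendrocyte markers 1 and 1, and of 6 endothelial markers 1 was higher. Their part in the differences of Nlgn1, Nrxn3 and Lrrtm3 was not tested. With animal number as a covariate 0 of the 9 genes passed between these arms, and 22 of all tested genes did. Lrrtm1 came near the threshold with a log2 difference of 0.21 (SE 0.0772, limma adjusted p = 0.0579). Among the partner genes, without that covariate, 27 of 72 passed, 37.5% against 24.5% of all tested genes. Of the partner genes 7 were higher and 20 lower, and of all tested genes 12.9% were higher and 11.5% lower. Higher ones included the cerebellins Cbln1 (from 2.16 ± 0.351 to 3.73 ± 1.05 FPKM, SD, n = 8) and Cbln2 (from 16.01 ± 2.32 to 21.5 ± 1.71 FPKM, SD, n = 8), secreted proteins that bridge neurexins to delta receptors. Khdrbs3, a splicing factor of neurexin transcripts, rose from 85.05 ± 4.35 to 98.5 ± 3.98 FPKM (SD, n = 8). Lower ones included Mdga2, which masks neuroligins from neurexins, from 5.97 ± 0.588 to 4.60 ± 0.492 FPKM (SD, n = 8), and the scaffold gene Cask, from 13.2 ± 0.739 to 11.6 ± 0.462 FPKM (SD, n = 8). Lrrc4c, the partner gene that passed for the genotype label, had the lowest p here and went from 39.5 ± 3.02 to 29.3 ± 1.47 FPKM (SD, n = 8). Tenm1, Ptprs, Slitrk1 and Nxph1 were also lower, by log2 differences of -0.55, -0.24, -0.28 and -0.26.

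Between males and females, in a fit of all 24 libraries that included arm, 4 of the 9 genes passed, and 28.6% of all tested genes did. Nrxn2 was at 31.5, 35.7 and 43.2 FPKM (lowest, median, highest of 12) in females and 28.9, 45.3 and 54.6 in males. Nlgn2 was at 44.7, 48.4 and 50.1 in females and 43.2, 54.6 and 59.5 in males. Both were higher in males, with overlap, by log2 differences of 0.26 (SE 0.0718, limma adjusted p = 0.00980) and 0.15 (SE 0.0406, limma adjusted p = 0.00911). The sexes lay closer in the trained arm, by means of 4 libraries. Nrxn2 was there at 38.1 FPKM in females and 39.6 in males, and Nlgn2 at 48.4 and 49.4. In the untrained arm labelled KO these means were 36.3 and 47.5, and 47.5 and 56.2. In the arm labelled WT they were 35.7 and 46.2, and 47.6 and 54.3. Nlgn1 was at 13.9, 17.6 and 19.9 in females and 11.2, 15.3 and 17.4 in males, and Lrrtm2 at 15.3, 21.6 and 27.5 against 15.1, 18.1 and 22.7. Both were lower in males, with overlap, by -0.19 (SE 0.0392, limma adjusted p = 0.00133) and -0.22 (SE 0.0772, limma adjusted p = 0.0373).

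These differences had the sign seen in other genes of like base composition. Among the 430 tested genes within 1 percentage point of the GC content of Nlgn1 the median difference between males and females was -0.16, and 93.0% were lower in males. Among 170 genes near Nrxn2, whose longest transcript is 62.4% GC, the median was 0.15, and among 395 near Nlgn2 it was 0.13. After each library was corrected for GC content and transcript length, 1 of 9 genes passed, as did 740 of all 12572 tested genes. The 1 gene was a different one: Nlgn3, with 0.20 (limma adjusted p = 0.0329) against 0.16 (limma adjusted p = 0.0650) without the correction. The Nlgn3 value pools arms of opposite direction. Its uncorrected mean FPKM (n = 4 each) was 20.1 in females and 24.1 in males labelled WT. In animals labelled KO it was 18.6 and 25.5 untrained, and 26.3 and 22.9 trained. Corrected values were 0.15 for Nrxn2, 0.03 for Nlgn2, 0.04 for Nlgn1 and -0.02 for Lrrtm2, so Nlgn1 changed sign. The correction takes out of each library the shift shared by genes of like GC content or length. The part of base composition in the differences between the sexes was not tested. Nrxn2 shares exon positions with Slc22a12 and Lrrtm2 with Ctnna1, in both cases on opposite strands, and without the strand setting of the counting reads from the shared positions cannot be told apart. Ctnna1 was at 18.6 ± 0.796 FPKM (SD, n = 8) in the arm labelled WT, 19.5 ± 1.90 (SD, n = 8) in the untrained and 20.8 ± 1.80 (SD, n = 8) in the trained arm labelled KO, and trained KO against WT gave 0.15 (limma adjusted p = 0.0354). The Lrrtm2 call was also lost in 11 of 24 fits that left out 1 library. In animals with numbers up to 1000 only, the differences were 0.38 for Nrxn2, 0.21 for Nlgn2, 0.35 for Nlgn3 and -0.18 for Nlgn1, which passed, and -0.27 for Lrrtm2, which did not (limma adjusted p = 0.134). How many of all tested genes passed in those animals is not given here. Without the library that stood apart 5 of 9 passed, as did 4148 of all 12572 tested genes. The added one of the 9 was Lrrtm4 (-0.11, limma adjusted p = 0.0489).

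**Figure D5:**
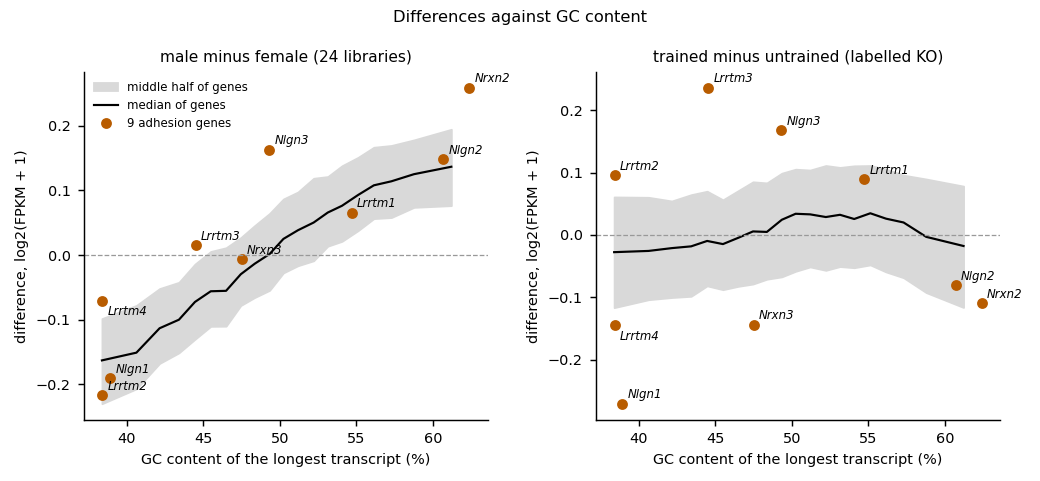
Difference in log2(FPKM + 1) (vertical axes) against GC content of the longest transcript (horizontal axes) for the comparison of males with females and for training. The black line is the median and the grey band the middle 50% of tested genes in 20 bins, and the points are the 9 adhesion genes. In the left panel Nlgn1 and Lrrtm2 are at -0.19 and -0.22 and Nrxn2 and Nlgn2 at 0.26 and 0.15, in the direction of the median line at their GC content.

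No gene of the 9 passed for a difference of the genotype label effect between the sexes, where 0.0% of tested genes passed in limma and 394 had an unadjusted p under 0.05, with none of the 9 among them. For training by sex 0 of 9 passed, with 3 at an unadjusted p under 0.05: Nlgn3, Lrrtm3 and Nlgn2, whose contrast was -0.21 (SE 0.0956, limma adjusted p = 0.295).

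Within arms and sexes, pairs of the 9 genes varied together to different degrees over the 24 libraries, which may share depth and base composition effects. Spearman's rho of the residuals, given as a description, was 0.80 for Nlgn2 with Nrxn2, both high in GC, 0.61 for Nlgn1 with Lrrtm4, both low in GC, and -0.55 for Lrrtm3 with Lrrtm4. Without the library that stood apart these were 0.80, 0.59 and -0.52. Lrrtm2, also low in GC, was at -0.17 with Lrrtm4 and at -0.11 with Nlgn1 over the 24 libraries. The part of GC content in these values was not tested. The tested genes with residuals most like those of Nlgn1 were Mapre1 (0.84) and Acsl1 (0.82). For Lrrtm3 they were Slc10a7 (0.81) and Plcl2 (0.73), and for Nlgn3 Tcf20 and Smad4 (0.85 each). For Nrxn2 they were Celf4 and Rab3b (0.90 each), for Nrxn3 Snrnp200 (0.92) and Cntn1 (0.89), and for Nlgn2 Gdap1l1 (0.89) and Serp2 (0.87). The nearest genes of Lrrtm1 were Aimp2 (0.81) and Bop1 (0.75), of Lrrtm2 Snap29 (0.92) and Ankib1 (0.88), and of Lrrtm4 Smoc1 (0.77) and Nbl1 (0.75).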

How the data were processed

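The authors deposited 1 table of FPKM values for 15232 genes in 24 libraries, whose column names speak of counts but whose values are not whole. Per the submitters' processing notes FastQC 0.11.7, Trimmomatic 0.38, STAR 2.5.3a and featureCounts (Subread 1.6.3) were used with mm10. The annotation, the strand setting and any gene filter are not given in the sources used here. Per the labels' protocols the library kit was stranded. Within a gene the values are whole multiples of 1 read, and whole reads were recovered for 15232 genes, with 99.975% of values whole within 0.01 read. They measure depth and served as input to the limma-voom fits. Counting error is only 1 part of their spread between libraries.

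Values were fitted as log2(FPKM + 1) with limma 3.58.1 in R 4.3.3 (eBayes with trend, Benjamini-Hochberg adjustment, threshold 0.05) over 12572 genes with a mean of at least 1 FPKM, on the arms compared with sex as a covariate. The fit and the read recovery were tested on simulated data. GC content came from GENCODE M21 for 96.4% of tested genes. All 9 members are described. Partner genes are named where they passed for the genotype label or training, at most 10 per comparison by p, and likewise for trained KO against WT. For each member the 2 genes with the nearest residuals are named too. Members, lists and tests were chosen with earlier results of these data known. The alternatives without male 3 of the untrained arm labelled KO combined with another choice, and in animals up to number 1000, were added after seeing the data. Each library is labelled as a separate animal.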

Additional observations from a re-analysis of the deposited data

Results flagged for a closer look

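Of 27 sets of 8 libraries (9 genes in 3 arms), 3 held 1 library apart from the others by Dixon's criterion, where chance gives about 1.35. Nlgn1 was at 11.2 FPKM in male 3 of the trained arm, with the nearest library of that arm at 13.2. Lrrtm3 was at 16.6 FPKM in female 4 labelled WT, with the nearest at 14.1. Lrrtm4 was at 6.7 FPKM in male 4 labelled WT, with the nearest at 7.57. The training difference of Nlgn3 differed between the sexes by -0.627 on the log2 scale (limma adjusted p = 0.0512), with all 4 trained females above all 4 untrained females labelled KO. The share of tested genes with such a split was not counted. The difference of Lrrtm3 between genotype labels was of opposite sign in the sexes, and the contrast of males with females was 0.184 (limma adjusted p = 0.980).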

How the results depend on the processing

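Calls for training depended most on the animals' numbers and on the replicate block. Of the 9 genes, 2 passed as reported, 0 with the replicate block, 0 with animal number as a covariate (also 0 without male 3 of the untrained arm labelled KO), 0 in males over 1000 only, and 1 after the GC and length correction (1 also without that male). With the replicate block the adjusted p was 0.137 for Nlgn1 and 0.20 for Lrrtm3. Animals with the same replicate number in the title are different mice. Their deviations correlated on average by 0.02, -0.07 and -0.10 in the 3 arm comparisons, over 8, 7 and 7 pairs. Single pairs ranged from -0.29 to 0.36, -0.20 to 0.10 and -0.27 to 0.01, so these averages cannot exclude a pairing. For training the block fit also left out the trained female without a number in its title and untrained female 4 labelled KO. Its counts therefore reflect fewer libraries as well as the block. Over all genes, 713 passed for training as reported, 1238 with all libraries in one fit, 422 without the sex covariate and 29 with the block. After GC correction 1000 passed, and 1281 without that male as well. In limma 0 passed with animal number (1306 at an unadjusted p under 0.05), in males over 1000 (1320) and without that male with animal number (1769). Leaving out 1 library gave 330 to 945, and fewest without trained females 1 (332), 2 (408) and 4 (433) and untrained females 1 (330) and 4 (472) labelled KO. For the genotype label 179 genes passed, 98 without the sex covariate, 114 with the block, 292 and 399 without male 3 with animal number and with GC correction, and 115 (without female 3 labelled WT) to 340 (without male 3 labelled KO) on leaving out 1 library. Between trained animals and the arm labelled WT 3 members and 3074 genes passed, 1614 genes with the block, and 0 members and 22 genes with animal number. For sex, 1 member and 740 genes passed after GC correction, 1 and 929 also without male 3, and 1 member without male 3 with animal number. How many of all genes passed in the last of these fits is not given here. For training by sex 1 member, Nlgn3, passed with a pseudocount of 0.1, a mean of at least 5 FPKM, quantile normalization and one fit. It also passed with GC correction, with (1) and without that male, and leaving out 1 library gave 0 to 1 members. How many of all tested genes passed in these fits is not given here, so the calls have no share beside them.

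Some differences that did not pass changed sign. For the genotype label, without male 3, Nrxn2 was -0.005 and Lrrtm4 -0.008 with animal number, and Nrxn2 -0.020, Nlgn2 -0.005 and Lrrtm2 0.001 with GC correction. On leaving out 1 library Nrxn2 ran from -0.004 to 0.054, Nlgn3 from -0.041 to 0.012, Lrrtm2 from -0.118 to 0.005, Lrrtm3 from -0.041 to 0.017 and Lrrtm4 from -0.020 to 0.077. For training, with animal number, in males over 1000 and with animal number without male 3, Lrrtm1 was -0.037, -0.084 and -0.050 and Lrrtm4 0.061, 0.006 and 0.016; Nlgn3 was -0.118 and -0.036 in the last 2. Lrrtm2 between trained animals and the arm labelled WT was -0.006 with equal sums. For sex, GC correction with and without male 3 gave Nrxn3 0.060 and 0.033, Nlgn1 0.042 and 0.039, Lrrtm1 -0.049 and -0.055, and Lrrtm4 0.10 and 0.057. Animals up to 1000 gave Nrxn3 0.108 and Lrrtm4 0.014, animal number gave Nrxn3 0.012 and Lrrtm3 -0.009 (-0.020 without male 3), and equal sums Lrrtm3 -0.030. Leaving out 1 library gave -0.033 to 0.022 for Nrxn3 and -0.001 to 0.041 for Lrrtm3. The causes were not tested. Depth, at least 412 reads per value, limits Lrrtm4 most.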
